A study of Homo sapiens with 16 samples.

Results

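The genes examined here were 44 interferon response genes, taken by gene symbol from a count table of 57820 genes with no threshold on expression. All 44 had reads in at least 1 library. Levels were measured by RNA-seq of total RNA, after depletion of ribosomal RNA, in 2 established T-ALL cell lines (T-lineage acute lymphoblastic leukemia), Jurkat and HSB-2, both labelled TAL1+ for activation of the TAL1 oncogene. In each line there were 4 groups of 2 libraries: wild-type cells, cells treated with a scrambled control, cells treated with USP7 shRNA-4057 and cells treated with USP7 shRNA-4058. USP7 encodes a deubiquitylating enzyme, and the hairpins, which target different exons of its transcript, were delivered by lentivirus, with transduced cells sorted on GFP or selected with puromycin. The labels name the control reagent a scrambled siRNA, while the series describes an shRNA scramble. Wild-type cells carried no hairpin, so scrambled cells were the control for handling and wild-type cells the control for the starting state. Each line is an established culture of malignant cells, and the labels do not say whether replicates were separate transductions, so p-values measure the spread between these libraries, which may be technical.

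Type I and type III interferons bind cell surface receptors that activate the kinases JAK1 and TYK2, which phosphorylate STAT2 among other targets. STAT2 and IRF9 are subunits of the complex ISGF3, which binds the interferon-stimulated response element (ISRE) in promoters of target genes, whereas type II interferon acts through the gamma-activated sequence (GAS). The targets encode sensors of foreign RNA, proteins that block translation, degrade RNA or stop viral entry, and regulators such as IRF1, IRF7 and IRF9 that feed back on the pathway. Many of these genes are also transcribed at a low level without added interferon, and no interferon treatment was part of this design.

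The promoters of several members are shown because they carry the elements by which these genes are known as interferon targets. RefSeq gave a promoter of 250 bases before to 50 bases after the start site (build GRCh38.p14) for 35 of the 44 members. The ISRE core was searched on both strands as 2 copies of GAAA with 2 bases of any kind between them, and GAS as TTCNNNGAA, which reads the same on both strands and can overlap an ISRE core. A core was found for 25 members and GAS for 12, with 8 holding both and 6 neither. Among all 35116 RefSeq promoters of this length, 3.57% held an ISRE core and 7.66% held GAS. Each sequence is read 5′ to 3′ along the gene's own strand, with the ISRE core in capitals.
ISG15: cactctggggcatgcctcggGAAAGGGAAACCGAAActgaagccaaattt
IFIT3: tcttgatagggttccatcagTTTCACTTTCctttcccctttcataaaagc
EPSTI1: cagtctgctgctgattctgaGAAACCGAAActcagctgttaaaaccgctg
RSAD2: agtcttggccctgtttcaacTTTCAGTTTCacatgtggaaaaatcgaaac
OAS3: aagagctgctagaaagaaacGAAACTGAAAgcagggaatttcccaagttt
MX1: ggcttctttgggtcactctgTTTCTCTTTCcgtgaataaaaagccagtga
In build GRCh38.p14 these windows lay at chr1:1013364-1013413 (plus strand) for ISG15, chr10:89332458-89332507 (plus strand) for IFIT3, chr13:42992262-42992311 (minus strand) for EPSTI1, chr2:6877612-6877661 (plus strand) for RSAD2, chr12:112938311-112938360 (plus strand) for OAS3 and chr21:41431834-41431883 (plus strand) for MX1. The capitals began between 50 and 196 bases before the start site. EPSTI1, RSAD2 and OAS3 were members that moved in opposite directions in the lines, and MX1 had a core but did not pass the test in any shRNA comparison. IRF1, IRF9 and OAS1 had no ISRE core in this window but held GAS, shown in capitals in the next lines.
IRF1: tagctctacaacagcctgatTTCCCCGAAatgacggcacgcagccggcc
IRF9: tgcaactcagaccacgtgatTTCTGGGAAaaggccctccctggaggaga
OAS1: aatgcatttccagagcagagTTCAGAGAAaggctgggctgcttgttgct
These windows lay at chr5:132490869-132490917 (minus strand) for IRF1, chr14:24161182-24161230 (plus strand) for IRF9 and chr12:112906774-112906822 (plus strand) for OAS1.

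Total counts ranged from 76.6 M to 235.5 M reads per library (M, a factor of 1e6), and the replicates of HSB-2 wild-type and of HSB-2 shRNA-4058 cells differed most in depth. Levels are given as CPM, the reads of a gene scaled to a common library size after TMM normalization. A member is called when its Benjamini-Hochberg adjusted p from edgeR, over all genes tested, was under 0.05. The targeted gene followed the labels in all libraries. USP7 was at 396 and 386 CPM in Jurkat wild-type, 384 and 387 in scrambled, 140.0 and 145 in shRNA-4057 and 244 and 242 in shRNA-4058 cells. The HSB-2 levels were 237 and 243, 227 and 220.1, 144 and 149 and 162 and 156 CPM in the same order. Against scrambled cells the log2 fold change was -1.43 and -0.67 in Jurkat and -0.61 and -0.49 in HSB-2, so the knock-down was partial in both lines. T-lineage markers (CD3D, CD3E, CD3G, CD2, CD5, CD7, PTPRC and LCK) were all above the floor of 3 counts in each group and summed to between 2253 and 2843 CPM in Jurkat and between 2754 and 3892 CPM in HSB-2. The myeloid list (CD14, LYZ and CSF1R) and the epithelial list (EPCAM, KRT8 and KRT19) stayed at or under 0.223 CPM in each library, with CSF1R, EPCAM and KRT19 at the floor. Of B-lineage markers, MS4A1 was at or under 0.330 CPM in each library, and CD79A was between 0.514 and 1.57 CPM in HSB-2 but higher in Jurkat, where it differed between groups (values beside the Jurkat counts).

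In wild-type cells the lines started from different levels. In the comparison of HSB-2 with Jurkat wild-type cells, 22 members were higher and 19 lower of 44 tested, against 33.5% and 34.6% of all 23063 genes tested. Divided by exon length so that genes can be compared, the most abundant member in Jurkat was BST2, which encodes tetherin, a membrane protein that holds budding virions, at 31.6 ± 0.349 CPM per kilobase (SD, n = 2), followed by IFI6 at 30.6 ± 1.63 and the ubiquitin-like modifier ISG15 at 26.8 ± 1.5. BST2 and IFI6 did not differ beyond their spread. In HSB-2 the membrane proteins that restrict viral entry led, with IFITM2 at 506 ± 14.6 and IFITM1 at 313 ± 5.83 CPM per kilobase, ahead of BST2 at 40.7 ± 0.176.

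The widest difference between the lines was in MX1, which encodes a dynamin-like GTPase that blocks viral nucleocapsids and lies next to its paralog MX2 on chromosome 21. MX1 was at 0.111 and 0.0444 CPM in Jurkat wild-type cells and at 73.4 and 68.8 CPM in HSB-2 wild-type cells, a log2 difference of 9.74 (adjusted p = 7.20e-25). The Jurkat level rests on few reads and differed between its libraries, so the size of this difference is imprecise and no standard error is given. TRIM22 differed by 5.37, IFITM1 by 5.19, IFITM2 by 4.74, IFITM3 by 3.86 and GBP2 by 6.31 on the log2 scale, each higher in HSB-2. IFITM1, IFITM2 and IFITM3 are related genes, and reads of stretches that they share may have been divided between them. The genes that were higher in Jurkat included IFIT1 (-2.74), ISG15 (-2.17), IFI6 (-1.50) and ISG20 (-1.46), and 3 members were not called: STAT2 (-0.05), DDX60 (0.14) and SAMD9L (-0.01).

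**Figure D1:**
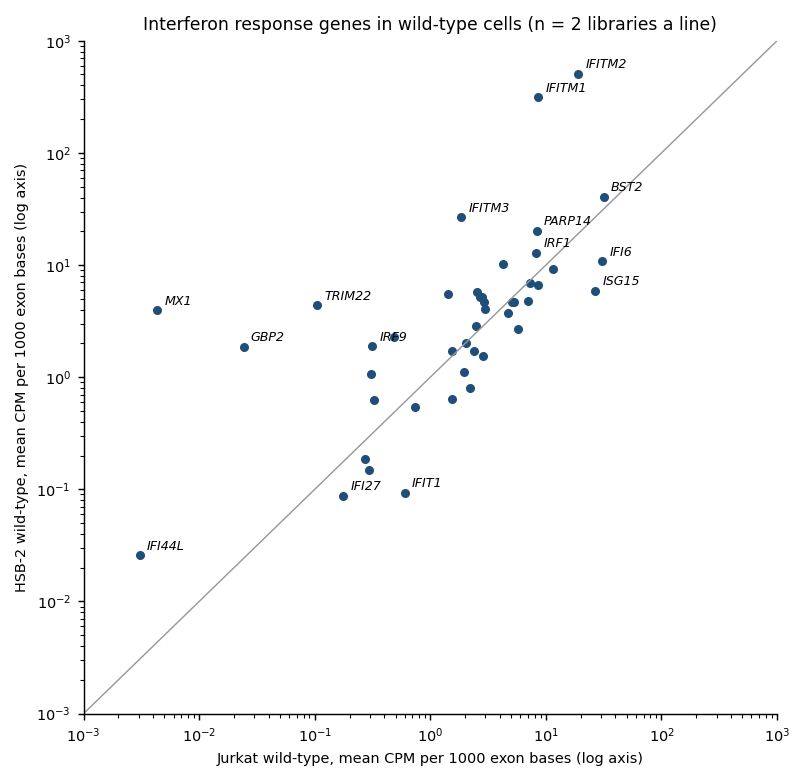
Mean level of each of the 44 members in wild-type cells, as CPM per kilobase of exon, in Jurkat (horizontal log axis) against HSB-2 (vertical log axis), n = 2 libraries a line, with the line of equal levels in grey. IFITM1, IFITM2, MX1, GBP2 and TRIM22 lie far above the line and ISG15, IFI6 and IFIT1 below it.

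In HSB-2 the members differed between the controls themselves. Against wild-type cells, scrambled cells had 36 members lower and 2 higher of 44, where 17.9% of all genes tested were lower and 16.1% higher. The median log2 fold change was -0.50 over the members and 0.00 over all genes. For 37 members both scrambled libraries lay below each of the other 6 HSB-2 libraries, and for EIF2AK2 and HERC5 above them, against 19.8% and 19.6% of 20185 genes. Among the genes that fell were IFI44L (-2.25), IFIT3 (-2), MX2 (-1.92), GBP2 (-1.71), IRF9 (-1.61), IFIT2 (-1.53) and SAMD9L (-1.45). The summed T-lineage markers moved with the members, at 3177 to 3195 CPM in wild-type, 2754 to 2824 in scrambled, 3440 to 3495 in shRNA-4057 and 3787 to 3892 in shRNA-4058 cells, and their part in the result was not tested. In such bulk libraries, fewer cells of a kind and less RNA per cell cannot be told apart.

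The counts for the HSB-2 shRNA cells therefore differed with the control. With shRNA-4057, 36 members were higher and 2 lower than in scrambled cells (all genes, 21.9% and 21.7%), but 14 higher and 2 lower than in wild-type cells (16% and 15.7%). With shRNA-4058, 38 were higher and 2 lower than scrambled (26.6% and 26.2%), and 23 higher and 2 lower than wild-type (23.0% and 21.1%). The median log2 fold change of the members was 0.59 and 0.71 against scrambled cells, and 0.11 and 0.25 against wild-type cells, for shRNA-4057 and shRNA-4058. The hairpins share their controls, so these values are set side by side and not counted as repeats of each other. The share of members above wild-type cells with shRNA-4057 was 31.8% and with shRNA-4058 52.3%.

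Pooling the hairpins, 34 HSB-2 members were higher and 2 lower than in scrambled cells (all 21113 genes, 20.3% and 17.8%). Against both controls together, 17 were higher and 1 lower (20185 genes, 15.6% and 15.0%). Here and below, this comparison sets all 4 shRNA against all 4 control libraries and needs no call against each control. All pooled comparisons and the line difference count the 2 libraries of a hairpin or control as separate units. Their p-values may therefore be too small. The members called higher in this last comparison were STAT2, IRF1, DHX58, IFIT2, IFIT3, IFIT5, OAS3, GBP1, GBP2, BST2, RSAD2, CMPK2, ISG20, TRIM22, IFI6, IFI35 and EPSTI1, and the member called lower was EIF2AK2. All 4 shRNA libraries lay above all 4 control libraries for 20 members and below them for 1, EIF2AK2, against 17.5% and 17.0% of all genes. When each library was left out in turn the count ran from 10 to 22, with 10 without scrambled replicate 2 or shRNA-4058 replicate 1, and 10 of the 18 calls (BST2, CMPK2, DHX58, EIF2AK2, EPSTI1, IFI6, IRF1, ISG20, OAS3 and RSAD2) were kept whichever library was left out.

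**Figure D2:**
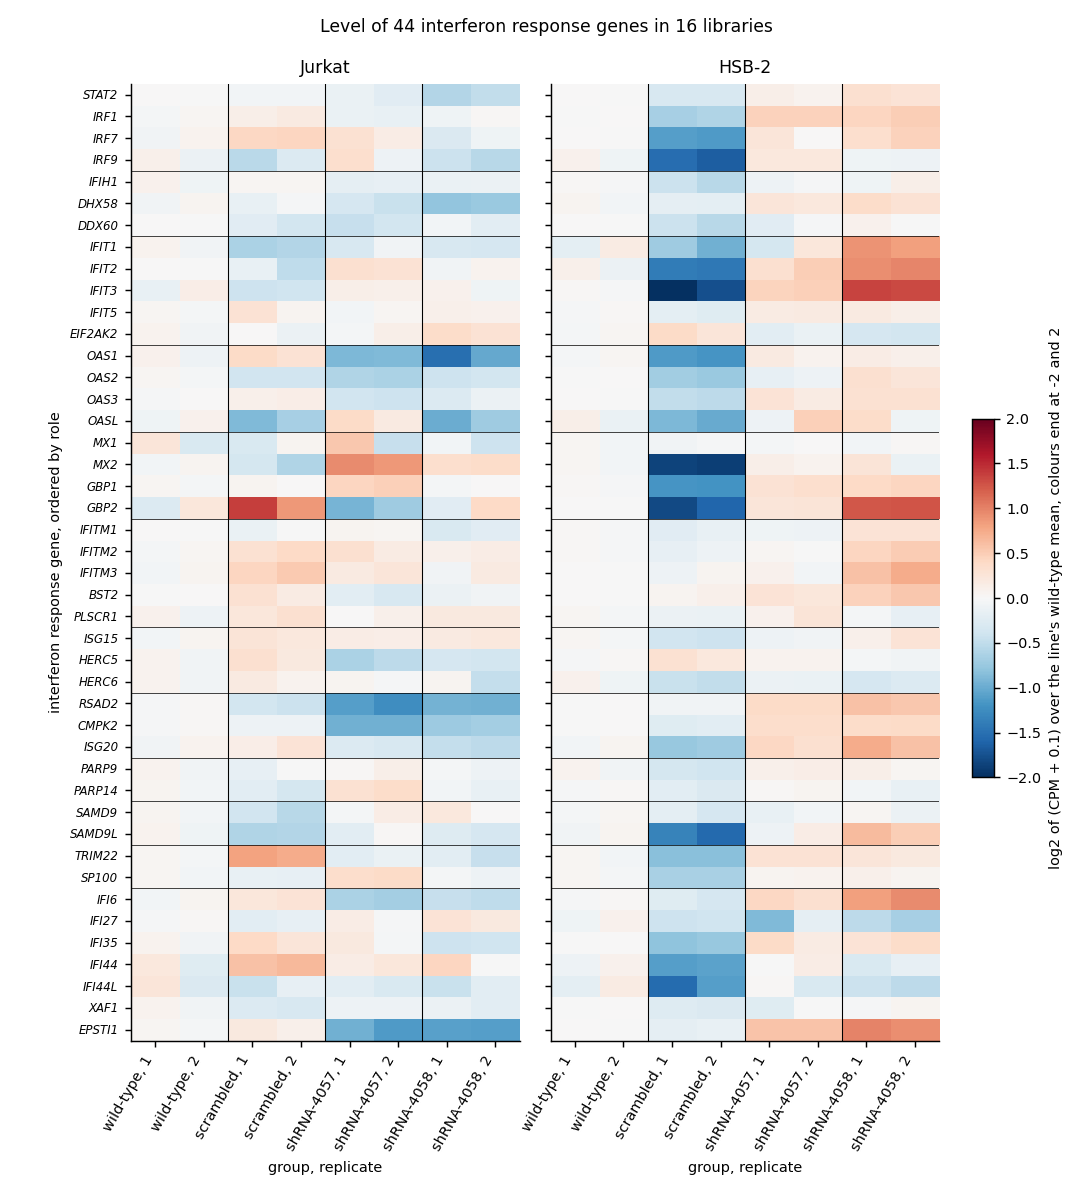
Level of the 44 members (rows, ordered by role, thin lines between roles) in the 8 Jurkat and 8 HSB-2 libraries (columns, 2 per group), as the log2 ratio of CPM + 0.1 to the wild-type mean of the line, with colours ending at -2 and 2. The scrambled HSB-2 columns are blue for most members, and the shRNA columns of HSB-2 are red for EPSTI1, IFI6, RSAD2 and IRF1, which are blue or pale in the shRNA columns of Jurkat.

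In Jurkat the controls also differed, but without a common direction. Scrambled cells had 14 members higher and 14 lower than wild-type cells, against 14.8% and 11.0% of all genes. The genes that were higher included GBP2 (1.58), TRIM22 (0.82) and IFI44 (0.64), and those that were lower OASL (-0.82), IFIT1 (-0.65) and SAMD9L (-0.60). Both scrambled libraries lay below the other 6 Jurkat libraries for 10 of 42 members and above them for 17, against 15.6% and 21.5% of 20215 genes. MX1 and IFI44L had too few reads in Jurkat to enter the pooled comparisons of that line.

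With USP7 shRNA, more Jurkat members were called lower than higher. Against scrambled cells 20 members were lower and 12 higher with shRNA-4057 (all genes, 27.3% and 22.7%), and 19 lower and 7 higher with shRNA-4058 (26.7% and 19.7%). Against wild-type cells the counts were 15 lower and 7 higher (21.2% and 15.4%) and 18 lower and 5 higher (21.9% and 13.9%). The medians of the members were -0.12 and -0.19 on the log2 scale against scrambled cells, and -0.0005 and -0.17 against wild-type cells, where 22 of 44 members had a log2 fold change above 0 with shRNA-4057. Pooling the hairpins gave 12 lower and 5 higher of 42 against scrambled cells (21288 genes, 15.7% and 12.4%), but only 9 called without scrambled replicate 1 and 6 without scrambled replicate 2. Against both controls 12 were lower, STAT2, DHX58, OAS1, OAS3, BST2, HERC5, RSAD2, CMPK2, ISG20, TRIM22, IFI6 and EPSTI1, and 1 was higher, MX2 (20215 genes, 14.1% and 12.5%). All 4 shRNA libraries lay below all 4 control libraries for 13 members and above them for 1, again MX2, where 19.1% and 12.4% of all genes did so. Markers moved with the Jurkat groups too. The summed T-lineage markers were at 2566 to 2605 CPM in wild-type, 2773 to 2843 in scrambled, 2447 to 2477 in shRNA-4057 and 2253 to 2336 in shRNA-4058 cells. CD79A was at 35.2 and 35.9 CPM in wild-type, 61.1 and 64.3 in scrambled, 21.5 and 21.5 in shRNA-4057 and 22.1 and 22.7 in shRNA-4058 cells. Both were lowest in shRNA cells and highest in scrambled cells, and their part in the result was not tested.

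**Figure D3:**
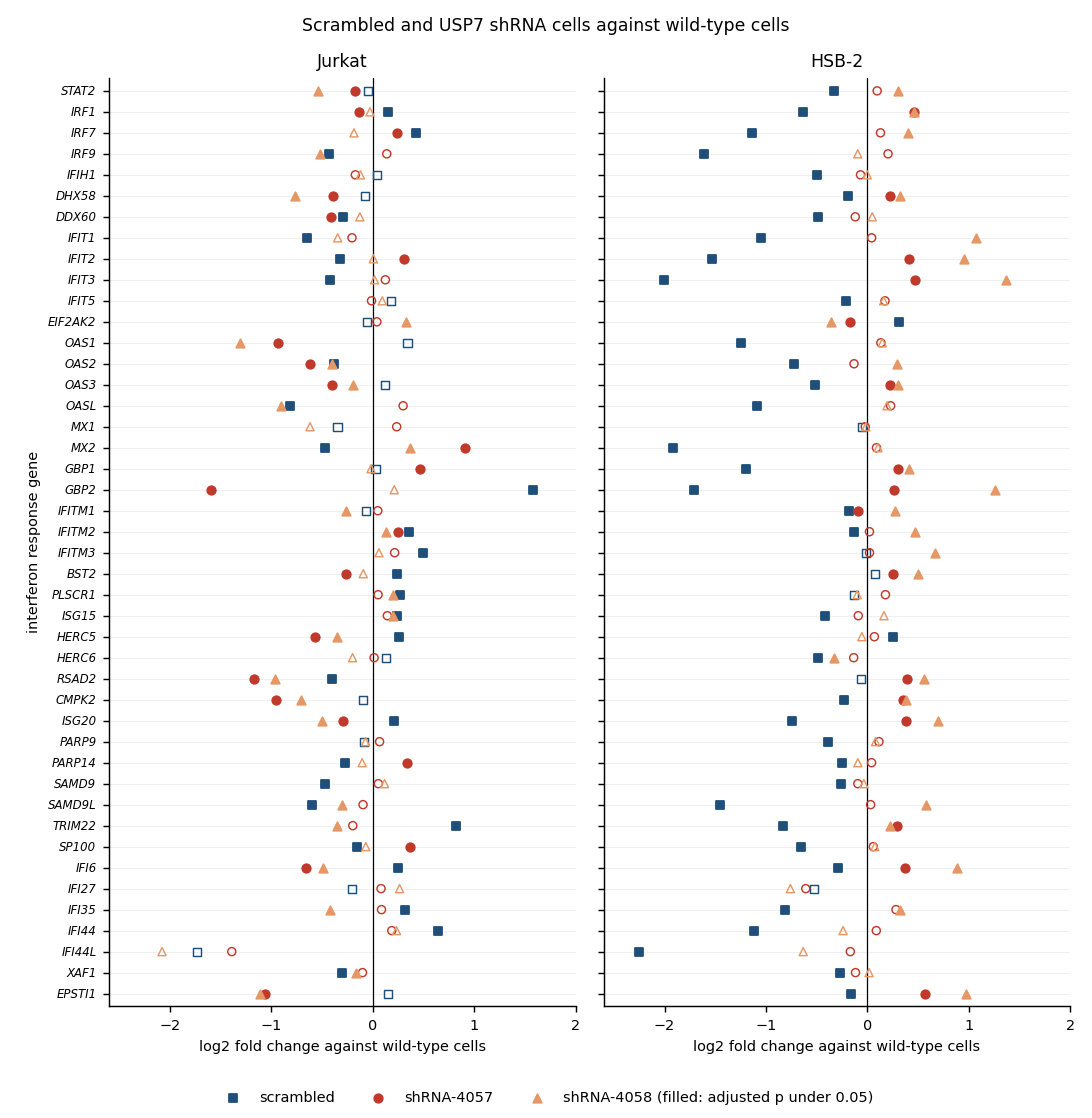
Log2 fold change against wild-type cells (horizontal axis) of each member (rows) in scrambled cells (squares), shRNA-4057 cells (circles) and shRNA-4058 cells (triangles) of Jurkat and HSB-2, with filled symbols for an adjusted p under 0.05. In HSB-2 the squares lie to the left of the circles and triangles for most genes, with EIF2AK2 and HERC5 the other way round, and in Jurkat the squares lie on either side.

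Among the regulators, all 4 rose in HSB-2 shRNA cells against scrambled cells and none of them rose in Jurkat with the hairpins pooled. IRF1, an inducible activator of transcription on chromosome 5, was at 156 and 159 CPM in HSB-2 wild-type, 99.7 and 104 in scrambled, 217 and 217 in shRNA-4057 and 212 and 221 in shRNA-4058 cells. Its 4 shRNA libraries were above all controls, and its log2 fold change was 1.10 ± 0.05 (SE) against scrambled and 0.74 ± 0.15 against both controls (adjusted p = 0.00547). In Jurkat IRF1 was at 98.2 and 103, 109 and 114, 92.2 and 91.3 and 95 and 102 CPM in the same group order, a difference of -0.12 from both controls that did not pass the test. Singly, shRNA-4057 was called lower than scrambled (-0.29) and wild-type cells (-0.13), and shRNA-4058 lower than scrambled (-0.18) and not wild-type cells (-0.03). Exons of IRF1 overlap an antisense transcript, IRF1-AS1.

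IRF9, the DNA-binding subunit of ISGF3, was at 12.9 and 11.5 CPM in HSB-2 wild-type and 4.20 and 3.82 in scrambled cells, then 14.2 and 14.1 with shRNA-4057 and 11.5 and 11.4 with shRNA-4058. The scrambled libraries were the lowest and the shRNA-4057 libraries the highest, called above shRNA-4058 (0.30), and against wild-type cells neither hairpin was called (0.20 and -0.10). In Jurkat IRF9 was under 3 CPM throughout, at 2.19 and 1.86 in wild-type, 1.36 and 1.66 in scrambled, 2.58 and 1.87 in shRNA-4057 and 1.48 and 1.35 in shRNA-4058 cells. There shRNA-4057 was called above scrambled (0.57) and shRNA-4058 below wild-type cells (-0.52), while scrambled cells were themselves below wild-type cells (-0.43) and the pooled comparisons were not called. IRF7, the factor that amplifies type I interferon production, was also lowest in HSB-2 scrambled cells and was called above wild-type cells with shRNA-4058 (0.40) but not with shRNA-4057 (0.13). Its HSB-2 levels were 13.6 and 13.5, 6.26 and 6.1, 16.1 and 13.6 and 17.2 and 18.7 CPM, and its Jurkat levels were 6.72 and 7.38, 9.41 and 9.55, 8.77 and 7.85 and 5.76 and 6.61 CPM. STAT2, which gives ISGF3 its activation domain, moved less, at 65.2 and 64.4, 51.7 and 51.7, 70.2 and 68.4 and 81.3 and 78.7 CPM in HSB-2. It was higher than both controls in HSB-2 (0.36, adjusted p = 0.0191) and lower in Jurkat (-0.29, adjusted p = 0.0473), where it was at 67.3 and 67.0, 64.8 and 64.8, 61.4 and 57.7 and 44.7 and 47.5 CPM, lowest with shRNA-4058.

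Of the RNA sensors, DHX58, which encodes the RIG-I-like helicase LGP2, was higher than both controls in HSB-2 (0.37) and lower in Jurkat (-0.49). IFIH1, which encodes MDA5, and the helicase DDX60 were called in neither line against both controls. IFIT3, an adaptor of the IFIT complex on uncapped viral RNA (chromosome 10, 91087064 to 91137230, plus strand, GRCh37), had the largest log2 fold change of the members called higher in HSB-2. It was at 3.20 and 3.09 CPM in wild-type, 0.712 and 0.865 in scrambled, 4.33 and 4.41 in shRNA-4057 and 8.21 and 8.01 in shRNA-4058 cells, with no overlap between any of the groups. The log2 fold change was 2.99 ± 0.33 against scrambled cells and 1.68 ± 0.49 against both controls (adjusted p = 0.0289), and the latter call was lost without at least 1 of the libraries. In Jurkat IFIT3 was at 1.47 and 1.81, 1.20 and 1.23, 1.78 and 1.77 and 1.75 and 1.54 CPM, higher than scrambled (0.52) but overlapping wild-type cells.

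IFIT2, which binds AU-rich RNA, was at 2.96 and 2.52 CPM in HSB-2 wild-type, 0.974 and 0.951 in scrambled, 3.47 and 3.89 in shRNA-4057 and 5.30 and 5.48 in shRNA-4058 cells. Its groups kept the order of IFIT3, to which it lies next on chromosome 10. In Jurkat IFIT2 was at 6.66 and 6.63, 5.97 and 4.62, 8.31 and 8.11 and 6.36 and 6.98 CPM, higher than scrambled with each hairpin (0.63 and 0.33), and it was not called against both controls. IFIT2 and IFIT3 share exonic bases with the antisense gene LIPA in the annotation used here, and the strand setting of the counting was not stated. IFIT1 stayed under 1 CPM in HSB-2. With the hairpins pooled, IFIT5 was called higher there than scrambled cells and than both controls. Neither hairpin was called against wild-type cells for IFIT5, and scrambled cells were called below wild-type cells.

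EIF2AK2 was the member called lower than both controls in HSB-2. It encodes PKR, the kinase that stops translation on sensing double-stranded RNA. Its HSB-2 level was 109 and 115 CPM in wild-type, 146 and 133 in scrambled, 96.4 and 102 in shRNA-4057 and 88.4 and 86.9 in shRNA-4058 cells. The scrambled libraries were the highest and all 4 shRNA libraries were below all 4 controls, with a log2 fold change of -0.57 ± 0.08 against scrambled and -0.43 ± 0.10 against both controls (adjusted p = 0.00894). In Jurkat it was at 49.0 and 44.8, 47.0 and 43.5, 45.7 and 50.9 and 60.8 and 57.2 CPM, called higher than scrambled with shRNA-4058 (0.38) and not with shRNA-4057 (0.09). Its exons overlap those of GPATCH11 on the other strand.

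Of the oligoadenylate synthetases, which make the second messenger of RNase L, the test of the line difference called OAS1, OAS2 and OAS3 and not OASL. OAS1 (chromosome 12, 113343661 to 113371024, plus strand) was at 4.06 and 3.56 CPM in Jurkat wild-type and 4.98 and 4.70 in scrambled cells and fell to 1.99 and 2.01 with shRNA-4057 and 1.27 and 1.82 with shRNA-4058. All 4 shRNA libraries were below all controls, at -1.25 ± 0.17 on the log2 scale against both (adjusted p = 0.00123). In HSB-2 OAS1 was at 1.87 and 1.99, 0.824 and 0.791, 2.19 and 2.03 and 2.15 and 2.09 CPM, so that it was 1.39 above scrambled cells and only 0.13 and 0.15 from wild-type cells, which was not called. OAS3 differed from both controls in each line, at -0.32 in Jurkat and 0.50 in HSB-2. OAS2 and OASL were called against both controls in neither line.

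The interferon-induced GTPases differed among themselves. GBP2, a guanylate-binding protein that acts on intracellular pathogens, was at 13.6 and 13.4 CPM in HSB-2 wild-type, 3.80 and 4.46 in scrambled, 16.1 and 16.3 in shRNA-4057 and 32.3 and 32.3 in shRNA-4058 cells. No 2 groups overlapped, and shRNA-4058 cells were 1 above shRNA-4057 cells on the log2 scale. In Jurkat GBP2 was near the limit of detection, at 0.128 and 0.222, 0.619 and 0.402, 0.0439 and 0.0680 and 0.134 and 0.263 CPM. It was called lower than scrambled with each hairpin (-3.18 and -1.37), while its difference from both controls (-1.36) was not called. GBP1 rose in HSB-2 (0.84 against both controls) and was not called in the pooled Jurkat comparisons. Singly, Jurkat shRNA-4057 cells were called higher than scrambled and wild-type cells for GBP1, and shRNA-4058 cells than neither.

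MX2, which restricts lentiviral capsids, was the member that rose in Jurkat against both controls. It was at 10.3 and 11.1 CPM in Jurkat wild-type, 8.37 and 7.04 in scrambled, 20.8 and 19.6 in shRNA-4057 and 13.6 and 13.9 in shRNA-4058 cells. The shRNA libraries were above all controls, with 0.91 ± 0.18 on the log2 scale (adjusted p = 0.00519). Its HSB-2 levels were 8.21 and 7.68, 2.12 and 2.09, 8.64 and 8.34 and 9.56 and 7.21 CPM, where the shRNA libraries overlapped wild-type cells and only scrambled cells were low. Its neighbour MX1 stayed between 67.4 and 73.4 CPM in all 8 HSB-2 libraries, with a change of 0.04 against scrambled cells, and between 0.0291 and 0.158 CPM in Jurkat. MX1 was outside the rule that chose genes for their change and is described because it did not move where most others did.

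Of the membrane proteins, BST2 was higher than both controls in HSB-2 (0.35) and lower in Jurkat (-0.27). In Jurkat BST2 was not called against wild-type cells with shRNA-4058. IFITM2, of a family that blocks fusion of viral and cellular membranes, was at 829 and 796 CPM in wild-type, 725 and 759 in scrambled, 838 and 811 in shRNA-4057 and 1094 and 1159 in shRNA-4058 cells of HSB-2, where shRNA-4058 was called above wild-type cells (0.47) and shRNA-4057 was not (0.02). In Jurkat IFITM2 was at 29.6 and 31.5, 37.8 and 40.2, 38.1 and 34.1 and 32.8 and 33.8 CPM. With shRNA-4058 it was called lower than scrambled cells (-0.23) and higher than wild-type cells (0.13), so its direction depended on the control. The phospholipid scramblase PLSCR1 was not called in any pooled comparison.

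ISG15, a modifier conjugated to other proteins, was higher than scrambled cells in HSB-2 (0.47) and was not called against both controls in either line. HERC5, the main ligase for ISG15, was at 34.8 and 31.6 CPM in Jurkat wild-type, 41.3 and 38.1 in scrambled, 21.4 and 23.2 in shRNA-4057 and 26.3 and 25.7 in shRNA-4058 cells. All its Jurkat shRNA libraries were below the controls (-0.56 against both, adjusted p = 0.0037). In HSB-2 HERC5 was at 22.5 and 23.1, 28.2 and 26.3, 24.0 and 23.9 and 22.2 and 21.6 CPM, lower than scrambled (-0.24), while the differences from wild-type cells, 0.07 and -0.05, were not called.

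The enzymes that act on nucleic acids and nucleotides were called against both controls in both lines, in opposite directions. RSAD2, which encodes viperin and makes a chain-terminating nucleotide, was at 16.3 and 17.0 CPM in Jurkat wild-type, 12.8 and 12.3 in scrambled, 7.71 and 6.98 in shRNA-4057 and 8.56 and 8.49 in shRNA-4058 cells. The HSB-2 levels of RSAD2 were 26.5 and 26.8, 25.4 and 25.5, 34.9 and 34.8 and 39.8 and 38.5 CPM. Its shRNA libraries were thus below all controls in Jurkat (-0.84) and above all controls in HSB-2 (0.51), and the HSB-2 controls differed by -0.07, which was not called. CMPK2, a mitochondrial nucleotide kinase, gave -0.74 and 0.48, and the exonuclease ISG20 gave -0.47 and 0.87. RSAD2 and CMPK2 lie on opposite strands with overlapping exons, so reads may be shared between them. RSAD2 is shown in each library because of its values and not by the rule for named genes.

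EPSTI1 and IFI6 had the same opposite movement. EPSTI1, an epithelial-stromal interaction gene induced by interferon (chromosome 13, 43460524 to 43566407, minus strand), was at 7.13 and 6.81 CPM in Jurkat wild-type, 8.03 and 7.45 in scrambled, 3.55 and 3.13 in shRNA-4057 and 3.23 and 3.20 in shRNA-4058 cells. The HSB-2 levels of EPSTI1 were 27.0 and 26.9, 23.8 and 24.4, 40.0 and 39.9 and 53.9 and 51.5 CPM. The change against both controls was -1.13 ± 0.10 in Jurkat (adjusted p = 0.000197) and 0.86 ± 0.11 in HSB-2 (adjusted p = 0.000694). IFI6, a mitochondrial and endoplasmic reticulum protein that protects cells from apoptosis, was at 27.5 and 29.7, 33.4 and 34.7, 18.5 and 17.7 and 20.7 and 20.1 CPM in Jurkat. It was at 10 and 10.3, 8.53 and 8.02, 13.5 and 12.7 and 17.9 and 19.6 CPM in HSB-2, highest with shRNA-4058. Neither gene had overlapping shRNA and control libraries in either line.

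**Figure D4:**
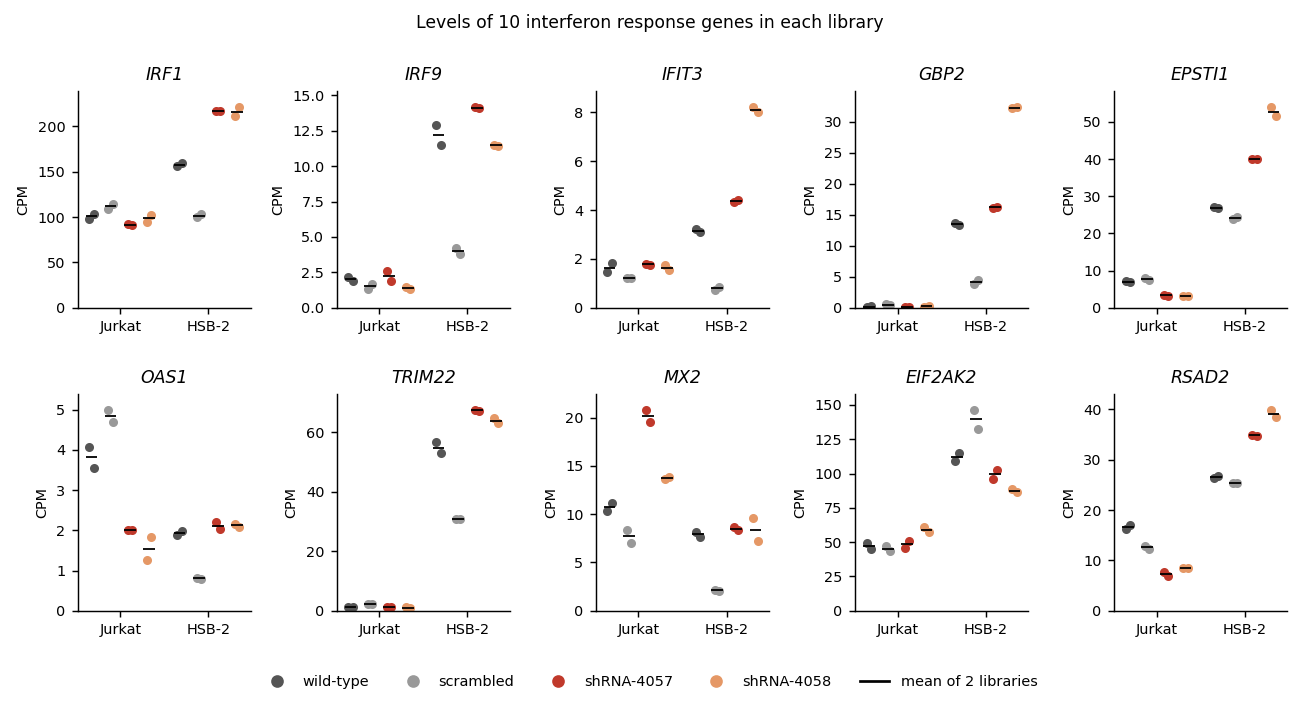
Level in CPM (vertical axes, from 0) of 10 members in each library (points) of the 4 groups of Jurkat and HSB-2, with the mean of 2 libraries as a bar. EPSTI1 and RSAD2 are low in the shRNA cells of Jurkat and high in those of HSB-2, MX2 is high in Jurkat shRNA cells, and IRF9 in HSB-2 is lowest in scrambled cells.

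TRIM22, an interferon-induced ubiquitin ligase, was at 1.36 and 1.29 CPM in Jurkat wild-type, 2.40 and 2.28 in scrambled, 1.12 and 1.19 in shRNA-4057 and 1.14 and 0.932 in shRNA-4058 cells. Its HSB-2 levels were higher, at 56.7 and 53.1, 30.9 and 30.7, 67.4 and 67.3 and 64.7 and 63.1 CPM. The Jurkat log2 fold change was -1.07 against scrambled cells, and -0.20 (not called) and -0.36 against wild-type cells for shRNA-4057 and shRNA-4058. SP100, a scaffold of PML nuclear bodies, rose against scrambled cells in HSB-2 (0.72) and was not called against both controls in either line. In Jurkat, SP100 was called higher than scrambled and wild-type cells with shRNA-4057, and than neither with shRNA-4058.

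The remaining groups changed mainly against scrambled cells, with some calls of single hairpins against wild-type cells. SAMD9, a growth-restraining cytoplasmic factor, was at 61.4 and 56.4 CPM in Jurkat wild-type, 44.9 and 40.1 in scrambled, 57.0 and 65.3 in shRNA-4057 and 68.5 and 59.2 in shRNA-4058 cells, and at 44.1 and 46.8, 39.9 and 35.9, 41.2 and 43.8 and 46.5 and 41.8 CPM in HSB-2. Its paralog SAMD9L was at 17.0 and 15.3, 10.6 and 10.8, 13.9 and 16.3 and 13.4 and 12.8 CPM in Jurkat and at 15.4 and 16.8, 6.30 and 5.38, 14.9 and 17.8 and 25.0 and 22.6 in HSB-2. With shRNA-4058 in Jurkat, SAMD9L was called higher than scrambled (0.30) and lower than wild-type cells (-0.30). In HSB-2, SAMD9L was called higher than scrambled and wild-type cells with shRNA-4058, and than scrambled cells only with shRNA-4057. The ADP-ribosyltransferase PARP14 was at 88.4 and 82.1, 73.8 and 67.1, 105 and 110.0 and 81.7 and 76.9 CPM in Jurkat, highest with shRNA-4057. Those shRNA-4057 cells were called above wild-type as well as scrambled cells, and shRNA-4058 cells above scrambled cells only. PARP14 in HSB-2 was at 205 and 209.6, 178 and 169, 211 and 216 and 200.3 and 188 CPM. None of SAMD9, SAMD9L, PARP14 and PARP9 was called against both controls.

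IFI44L, a feedback regulator of interferon signalling, was at 0.250 and 0.347 CPM in HSB-2 wild-type, 0.0375 and 0.0854 in scrambled, 0.303 and 0.222 in shRNA-4057 and 0.197 and 0.178 in shRNA-4058 cells, and at most 0.0599 CPM in Jurkat, where no fold is given. It was 1.87 ± 0.48 above scrambled cells in HSB-2 (adjusted p = 0.0146), on 7 to 15 reads in each scrambled library. IFI27 was called in no shRNA comparison of either line. IFI35 rose in HSB-2 (0.66 against both controls), while IFI44, XAF1 and HERC6 were called against both controls in neither line.

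The hairpins were compared directly in each line. In HSB-2, 17 members were lower and 4 higher with shRNA-4057 than with shRNA-4058 (all genes, 14.3% and 10.5%). The genes that were higher with shRNA-4058 included IFIT1 (-1.03 for shRNA-4057 against shRNA-4058), GBP2 (-1), IFIT3 (-0.89), IFITM3 (-0.65), SAMD9L (-0.54) and IFI6 (-0.51). USP7 itself was at -0.12 with shRNA-4057 against shRNA-4058 in HSB-2, and its relation to the member counts was not tested. In Jurkat 13 members were higher and 10 lower with shRNA-4057 (17.7% and 16.2%), with a USP7 difference of -0.77. OASL (1.21), IRF9 (0.66) and MX2 (0.55) were higher with shRNA-4057 there, and GBP2 (-1.81), EIF2AK2 (-0.29) and DDX60 (-0.29) were lower.

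Whether the hairpins acted unequally in HSB-2 and Jurkat was tested as an interaction over the 12 shRNA and scrambled libraries. The signed log2 fold change was higher in HSB-2 than in Jurkat for 31 members and lower for 2, EIF2AK2 and SAMD9, of 44 tested, against 20.6% and 17.1% of 22732 genes. The median difference was 0.91 on the log2 scale over the members and -0.01 over all genes. GBP2 had the largest difference, 4.53 ± 0.67 (SE, adjusted p = 0.000214), on the few Jurkat reads given above. It was followed by OAS1 (2.84 ± 0.25), IFIT3 (2.50 ± 0.38) and TRIM22 (2.19 ± 0.12), with adjusted p of 3.86e-06, 0.000251 and 1.16e-07. This test uses scrambled cells alone as control, and in HSB-2 those cells were below wild-type cells for most members, so a low scrambled level and a high shRNA level cannot be told apart in that term. Against both controls, 10 of 42 members tested in both lines (23.8%) were called lower in Jurkat and higher in HSB-2, namely STAT2, DHX58, OAS3, BST2, RSAD2, CMPK2, ISG20, TRIM22, IFI6 and EPSTI1, and 0 the other way. Of all 18444 genes tested in both lines, 4.24% and 3.04% were so called.

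**Figure D5:**
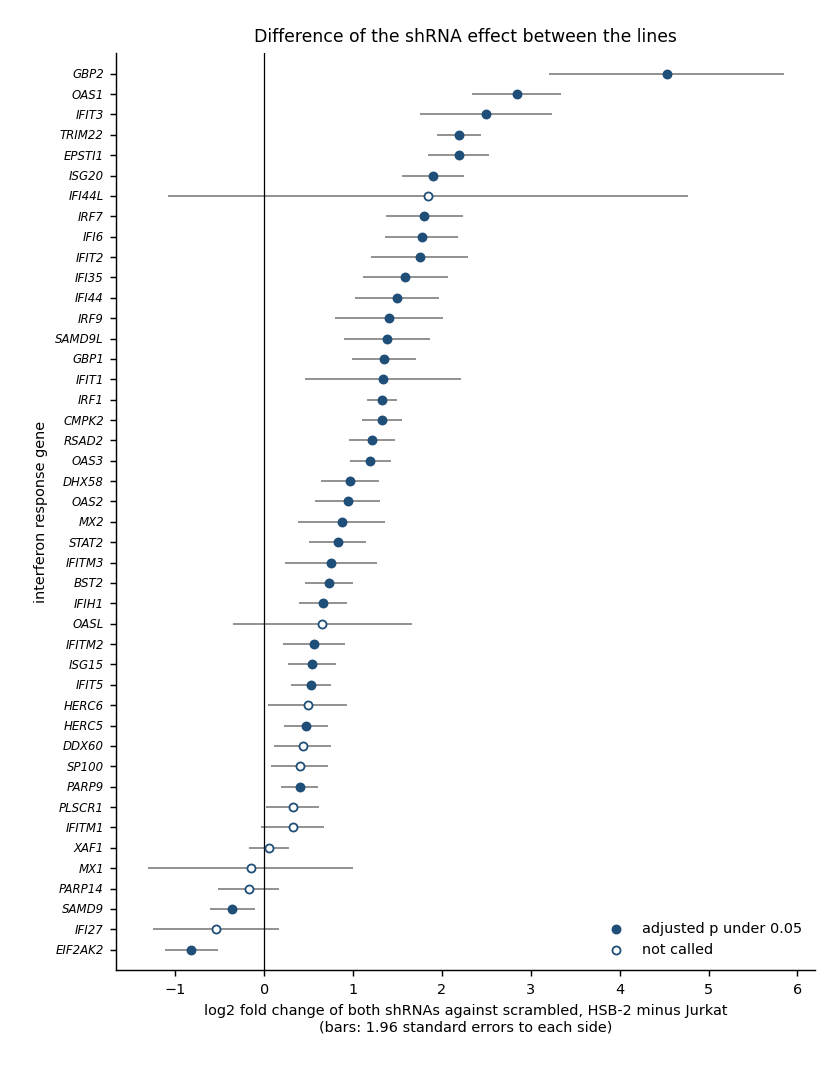
Difference of the log2 fold change of both shRNAs against scrambled cells, HSB-2 minus Jurkat (horizontal axis), for each of the 44 members (rows, in order of size), with bars of 1.96 standard errors to each side and filled points for an adjusted p under 0.05. The filled points lie to the right of 0 for 31 members and to the left for EIF2AK2 and SAMD9.

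Calls were found among members with and without an ISRE core. Of the 25 members with an ISRE core, 9 were higher and 1 lower than both controls in HSB-2, and of the 10 with a promoter and no core, 4 were higher and none lower. The medians were 0.28 and 0.56 on the log2 scale. Of all genes tested there, 15.6% were higher and 15.0% lower, and shares by promoter class were not computed for them. In Jurkat 7 of 23 tested members with a core were lower, as were 3 of the 10 without one and 14.1% of all genes. The 9 members with no RefSeq entry here were IRF7, DHX58, IFIT2, OAS2, OASL, MX2, GBP2, IFITM2 and TRIM22. Of these, 4 were higher and none lower than both controls in HSB-2, with a median of 0.65. In Jurkat 2 of them were lower and 1 higher.

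Genes upstream of the members were read from a list of 54 ligands, receptors, kinases, sensors and negative regulators, of which 53 were matched and 31 tested in the fit of all libraries. Against both controls, 15 of 29 tested genes were higher and none lower in HSB-2, with a median log2 fold change of 0.29, where 15.6% of all genes were higher and 15.0% lower. In Jurkat 4 were higher and 5 lower of 29, with a median of -0.05, where 12.5% of all genes were higher and 14.1% lower, shares near those of the list. IFNB1, which encodes interferon beta, was at no more than 0.0212 CPM in any library, on at most 2 reads, and of 21 ligand genes only IFNL1, a type III interferon, had enough reads to be tested. IFNL1 was at 0.0745 and 0.105 CPM in HSB-2 wild-type, 0.0696 and 0.0285 in scrambled, 0.268 and 0.164 in shRNA-4057 and 0.274 and 0.311 in shRNA-4058 cells, higher than both controls by 1.90 ± 0.39 (adjusted p = 0.00599). Against wild-type cells it was called with shRNA-4058 and not with shRNA-4057, and its line difference was not called. These levels are low, with a floor of 3 counts at 0.0161 and 0.0169 CPM in the scrambled libraries.

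Of the other genes of the pathway, IFNLR1 and IRF5 were called against both controls in both lines. The type III receptor subunit IFNLR1 rose in each, by 0.59 in Jurkat and 1.55 in HSB-2, from 0.311 and 0.347 CPM in HSB-2 wild-type cells. IRF5, a factor downstream of Toll-like receptors, fell in Jurkat (-1.65) and rose in HSB-2 (1.27). USP18, which removes ISG15 from proteins and dampens the type I receptor, was lower in Jurkat (-0.34, adjusted p = 0.033) and was not called in HSB-2 (0.03). DDX58, which encodes the RNA sensor RIG-I, rose in HSB-2 (0.24) and was not called in Jurkat (-0.11). JAK1 and JAK2 were higher in HSB-2, at 0.43 and 0.19, and were called in neither pooled Jurkat comparison.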

How the data were processed

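RNA-seq was performed on 16 libraries, 2 in each of 8 groups, and groups were taken from the labels. The authors deposited counts of reads per gene as whole numbers, 1 column a library. Per the methods and labels, total RNA was depleted of ribosomal RNA, made into stranded libraries, mapped with BWA against GRCh37-lite and transcript collections (the submitters' processing notes also list STAR, CASAVA and hg19) and counted with HTSeq 0.6.1p1. The strand setting and annotation release are not given in the sources used here, so reads of overlapping genes may have been divided in ways not seen.

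The members, gene lists and comparisons were chosen with earlier results of these data known. Symbols were matched to the table's Ensembl IDs (96.1% matched), and coordinates and exon lengths came from GENCODE release 44 mapped to GRCh37. The tests used edgeR 4.0.16 under R 4.3.3, with filterByExpr, TMM scaling (factors 0.882 to 1.15) and the quasi-likelihood F-test, with p adjusted over all genes tested. Single hairpins and controls came from a fit of 16 libraries as 8 groups (23063 genes, biological coefficient of variation 4.20%), pooled hairpins from fits of 4 against 2 or 4 against 4 libraries, and the line difference from an interaction over 12 libraries. The standard error was the absolute log2 fold change divided by the square root of F. It is approximate, and poorest for large changes on few reads. The fits were tested on simulated data. Some genes of the lists are not reported here. A floor of 3 counts corresponded to 0.0127 to 0.0392 CPM, and such floors cover counting error only. Values in every library are given for the 4 regulators, for up to 5 members a line and direction with the largest pooled change against scrambled cells among those called with each hairpin, for the 4 largest line differences and for members whose direction depended on the control. Alternatives used DESeq2 1.42.0 or its size factors, other count filters, a replicate block, a correction for GC content and length (mgcv 1.9.3), only the libraries of the line, matched hairpins, and each library left out.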

Additional observations from a re-analysis of the deposited data

Results flagged for a closer look

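In groups of 4 libraries, the highest or lowest library stood apart from the rest by Dixon's criterion (a gap, relative to the range, past the critical value for 4 samples) in 4 of 176 sets of member and group, where chance gives about 1 in 20. Among the Jurkat shRNA libraries, IFIT1 was highest in shRNA-4057 replicate 2, at 2.61 CPM against 2.16 to 2.19 in the others. In Jurkat shRNA-4058 replicate 2, IFIT3 was lowest at 1.54 CPM and HERC6 lowest at 1.25 CPM. Among the Jurkat controls, IFITM1 was lowest in scrambled replicate 1, at 13 CPM. Each set joined 2 hairpins or 2 controls.

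The effect of both shRNAs against scrambled cells differed between the lines for 33 members by the interaction test of edgeR, at an adjusted p under 0.05. The differences, HSB-2 minus Jurkat on the log2 scale, were -0.82 for EIF2AK2 and -0.36 for SAMD9, and for the 31 members with the higher signed log2 fold change in HSB-2 they were 0.40 for PARP9, 0.47 for HERC5, 0.52 for IFIT5, 0.54 for ISG15, 0.57 for IFITM2, 0.67 for IFIH1, 0.73 for BST2, 0.75 for IFITM3, 0.83 for STAT2, 0.87 for MX2, 0.94 for OAS2, 0.96 for DHX58, 1.19 for OAS3, 1.21 for RSAD2, 1.33 for CMPK2, 1.33 for IRF1, 1.34 for IFIT1, 1.35 for GBP1, 1.38 for SAMD9L, 1.41 for IRF9, 1.49 for IFI44, 1.59 for IFI35, 1.75 for IFIT2, 1.77 for IFI6, 1.80 for IRF7, 1.90 for ISG20, 2.19 for EPSTI1, 2.19 for TRIM22, 2.50 for IFIT3, 2.84 for OAS1 and 4.53 for GBP2. A positive difference can also come from a larger fall in Jurkat, as for HERC5, which was called lower than scrambled cells in both lines. With hairpins matched in the fit of 8 groups, 34 members were higher and 3 lower in HSB-2 with shRNA-4057, and 36 higher and 2 lower with shRNA-4058. The share of all genes called was not counted for these matched comparisons. Their median difference was 0.67 and 1.16 over the members, and -0.02 and 0.01 over all genes. All of these comparisons between the lines used scrambled cells as control, which in HSB-2 were below wild-type cells for 36 members.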

How the results depend on the processing

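No member called in the main comparisons changed sign under another scaling, tool, filter or left-out library, except SAMD9 in the line difference, which went from -0.36 to 0.0071 (not called) with a correction for GC content and gene length, and the cause was not tested. Counts of members called stayed within 1.5 times of the values given, apart from a demand for at least a 2-fold change and some left-out libraries. With at least a 2-fold change, the counts in Jurkat were 6 and 4 (shRNA-4057 and shRNA-4058 against scrambled), 3 and 2 (against wild-type), 1 (scrambled against wild-type), 2 (between hairpins), 5 (pooled against scrambled) and 2 (against both controls). In HSB-2 they were 17, 19, 0, 3, 13, 1, 17 and 3 in the same order, with 21 between wild-type cells of the lines and 19 in the line difference. The 0 in HSB-2 shRNA-4057 against wild-type comes from edgeR, with 16 called at any fold and 21 at an unadjusted p under 0.05.

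Leaving out each library in turn gave 6 to 17 members for Jurkat pooled hairpins against scrambled cells (6 without scrambled replicate 2, 9 without scrambled replicate 1), 10 to 22 for HSB-2 against both controls (10 without scrambled replicate 2 or shRNA-4058 replicate 1, 11 without shRNA-4058 replicate 2) and 15 to 23 for Jurkat shRNA-4058 against wild-type cells (15 without wild-type replicate 1). The Jurkat calls for BST2, DHX58, GBP2, IFIT2, IFIT3, ISG20, MX2, OAS3, RSAD2, SAMD9 and SAMD9L in the pooled comparison with scrambled cells, and the HSB-2 calls for GBP1, GBP2, IFIT2, IFIT3, IFI35, IFIT5, STAT2 and TRIM22 against both controls, with BST2, STAT2 and TRIM22 in the latter comparison in Jurkat, were each lost without at least 1 library.

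With the replicate block, the number of members called was 12 against 17 (Jurkat pooled, scrambled), 10 against 13 (both controls), 35 against 36 and 14 against 18 in HSB-2, and 30 against 33 in the line difference, and no other count moved by more than 3. Deviations of same-numbered libraries correlated between -0.23 and 0.20 in Jurkat and between -0.16 and 0.13 in HSB-2, over 13364 genes. In Jurkat they were positive among wild-type, scrambled and shRNA-4058 cells (0.17 to 0.20) and negative with shRNA-4057. The numbers thus show no common pairing, while a batch shared under another numbering was not tested and would not be removed by the replicate block. The depth limits members near the floor, GBP2, MX1 and IFI44L in Jurkat above all.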
